A study of Arabidopsis thaliana with 36 samples.

Results

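The sys123 line of Arabidopsis thaliana is labelled as mutant in 3 related genes, SYS1, SYS2 and SYS3, and it was compared here with wild type across every expressed gene. The comparison used 6 of the 36 RNA-seq libraries of the series, the 3 labelled sys123 and the 3 labelled wild type, chosen by their labels alone. The labels give the genotype of the mutant as sys1-/-sys2-/-sys3-/- and that of the control as wild type, with no accession name and no allele. The other 30 libraries came from 10 further mutants of the same kind of complex, and of these syd-/- and swi3d-/- (3 libraries each) were used for direct contrasts. Every library was made from whole seedlings 12 days old that had grown on Murashige and Skoog plates under a day of 16 h at 23 °C and a night of 8 h at 22 °C, and RNA was sequenced as single 50 bp reads. No label says that replicate libraries are from different plantings; the p-values therefore measure only the spread between these libraries, which may be technical. Whole seedlings mix shoot and root, and in such samples fewer cells of a type and less RNA per cell cannot be told apart.

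SWI/SNF complexes use ATP to slide or evict nucleosomes and so open or close DNA to transcription factors. In Arabidopsis they are built on 1 of several ATPases, among them BRM, SYD and the MINU pair. SYD carries SWI3D as a scaffold subunit, and the SYS proteins are subunits found with SYD in this series' study. SYD is known in this plant for roles in shoot meristem upkeep, flower development and hormone-dependent defence genes.

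Levels are given in CPM, the reads of a gene relative to a common library size, where 1 CPM stands for about 23.1 reads. The 6 libraries held, as recovered from the deposited values, between 22777662 and 23283481 reads on genes. Over 17795 genes at 2 CPM or more, Pearson's r across genes was 0.98 to 0.9886 between wild-type libraries, 0.9857 to 0.9935 between sys123 libraries and 0.9462 to 0.9673 between the genotypes, as a description, since genes are not independent. Between 64 and 325 genes lay more than 2-fold apart within a genotype, and between 860 and 1580 across genotypes. Wild-type replicate 2 stood apart in a few defence transcripts and sys123 replicate 3 in iron uptake transcripts, and both are given where they bear on a result. Leaf markers (LHCB1.1, LHCB1.3, RBCS1A, RCA and LHCA1) summed to 38600 to 57000 CPM in wild type and 53400 to 55300 CPM in sys123. The 10 root markers summed to 102 to 185 CPM and 178 to 200 CPM, with 1 member higher and 1 lower in sys123. Guard cell markers (MYB60, FMA and HT1) summed to 19.8 to 32.7 CPM and 16.9 to 22.3 CPM, with 2 of 3 lower in sys123, and the part of these cells in any result was not tested. All 5 flower organ markers and the meristem markers WUS, CLV3 and STM stayed under 1 CPM in both genotypes.

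The targeted genes were examined first. SYS1 (AT5G07940) was read at 39.5, 40.6 and 38.4 CPM in wild-type replicates 1 to 3 and at 30.5, 28.5 and 28.7 CPM in sys123. SYS2 (AT5G07970) was read at 34.2, 37.1 and 31.2 CPM and at 24.3, 23.2 and 23.8 CPM. The sys123 libraries were the lowest of all 36 for both genes, the lowest of the other 33 being at 32.3 CPM for SYS1 and 30.0 CPM for SYS2. The log2 changes were -0.43 ± 0.06 (standard error; limma adjusted p = 7.66e-06) and -0.52 ± 0.07 (adjusted p = 4.14e-06), which left 74.1% and 69.6% of the wild-type level. SYS3 (AT5G07980) was read at 27.6, 28.7 and 22.8 CPM in wild type and at 22.2, 20.7 and 23.8 CPM in sys123, so the genotypes overlapped. Its log2 change was -0.24 ± 0.09 (limma adjusted p = 0.0479), and the call was lost when wild-type replicate 1 (adjusted p = 0.151), wild-type replicate 2 (0.193), sys123 replicate 1 (0.094) or sys123 replicate 2 (0.176) was left out. The mutant thus still held reads on all 3 genes; the labels give no site of the mutations, and a count over a whole gene does not show whether the transcripts are intact. The 3 genes lie close together on chromosome 5. Of their neighbours with enough reads to test, E13L3 (AT5G08000) rose from 18.5, 21.8 and 20.5 CPM to 39.7, 32.1 and 37.7 CPM (log2 change 0.85 ± 0.15, limma adjusted p = 0.000128). TT7, DGK1 and 4 further neighbours did not pass the test.

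**Figure D1:**
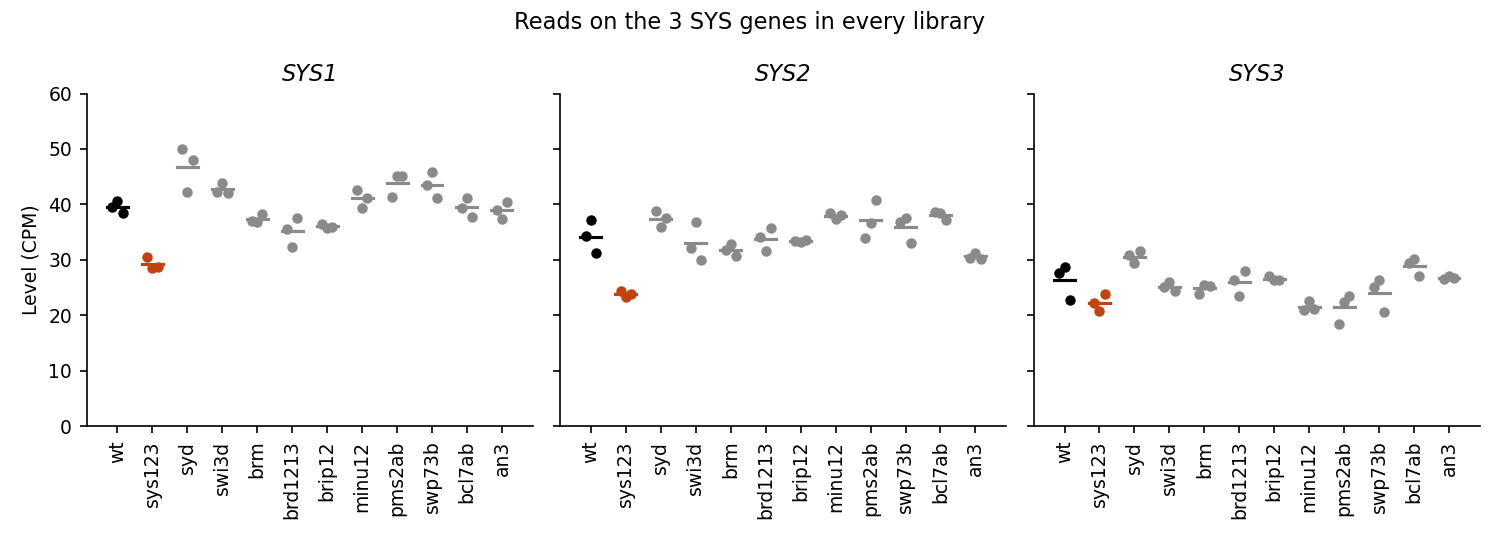
Level of SYS1, SYS2 and SYS3 in CPM (vertical axis) in each of the 36 libraries, by genotype, with a bar at each mean (3 libraries a genotype). The sys123 points are the lowest of all libraries for SYS1 (30.5 CPM at most) and SYS2 (24.3 CPM at most), and lie among those of other genotypes for SYS3.

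Of the 23297 genes tested, 3309 (14.2%) rose and 2991 (12.8%) fell in sys123 at a limma adjusted p under 0.05. Changes of at least 2-fold were found for 695 rising genes (2.98%) and 912 falling genes (3.91%), and at least 4-fold changes for 184 and 227. The median size of a called change was 0.59 on the log2 scale, and 3136 called genes changed by less than 1.5-fold. The 3 sys123 libraries lay all above the 3 wild-type libraries for 4707 genes (20.2%) and all below for 4267 (18.3%); among called genes this held for 3069 that rose and 2763 that fell. Of the calls, 1599 rises and 1546 falls were held in each of the 6 fits that left out 1 wild-type or sys123 library. Scaling by library totals moved the median change of all genes from 0.005 to -0.1 on the log2 scale, and the share of calls that were rises from 52.5% to 31.7%, so the balance of rises and falls depends on the scaling.

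**Figure D2:**
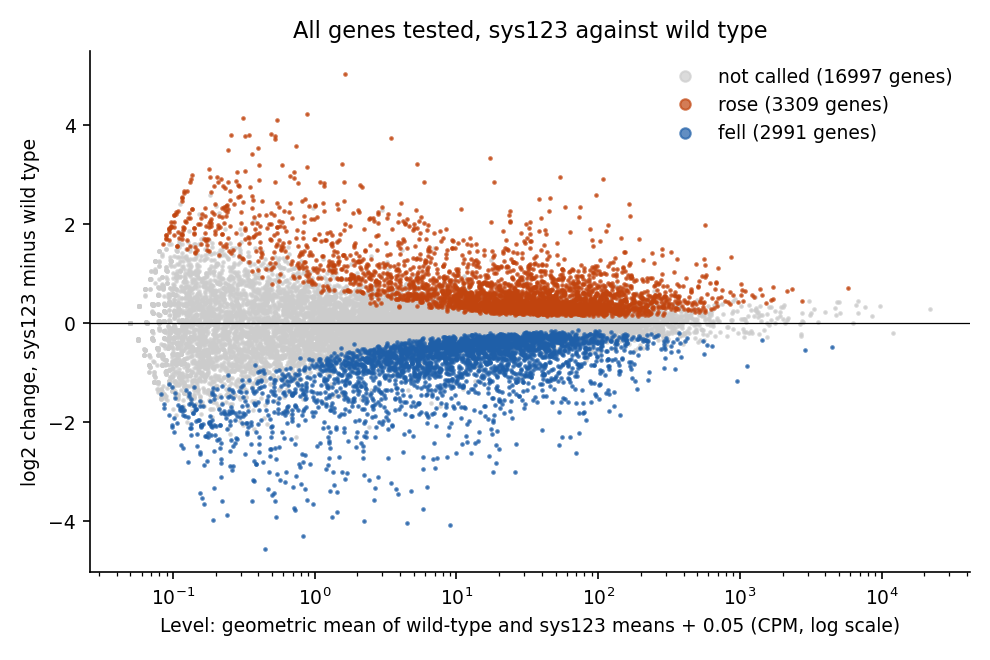
Each point is a gene tested, with its level (geometric mean of the wild-type and sys123 means plus 0.05, CPM, log scale) on the horizontal axis and its log2 change (sys123 minus wild type) on the vertical axis. The 3309 genes that rose and the 2991 that fell spread over the whole range of levels.

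Called genes were spread evenly over the 5 chromosomes, where 13.7% to 14.9% of tested genes rose and 12.7% to 13% fell. They were less evenly spread over expression levels. From the lowest to the highest quartile of mean level the share that rose was 7.35%, 10.5%, 16% and 23%. The share that fell was 9.7%, 17%, 14.1% and 10.5%, so it was lowest at both ends. These shares also move with the power of the test.

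The largest rises and falls are given for genes with a symbol and a mean of 2 CPM or more whose call was held in every leave-one-out fit and by edgeR. The choice also required the 3 sys123 libraries to lie all above or all below the 3 wild-type libraries. GolS3, a galactinol synthase that makes precursors of raffinose sugars, was read at 4.1, 5.13 and 5.76 CPM in wild type and at 82.3, 69.7 and 22.5 CPM in sys123. All 3 mutant libraries were above wild type although replicate 3 was much lower than the others, and the log2 change was 3.34 ± 0.56 (limma adjusted p = 4.57e-05). HDA18, a histone deacetylase known for root epidermal patterning, rose from 0.759, 0.539 and 0.184 CPM to 4.95, 4.56 and 3.59 CPM (3.21 ± 0.44). LTI65, a dehydration protein also called RD29B, rose from 39.8, 54.1 and 25.2 CPM to 351, 203 and 329 CPM (2.92 ± 0.52). OFP16, of the OVATE family of growth repressors, rose from 6.43, 9.3 and 5.09 CPM to 46.7, 46.5 and 52.9 CPM (2.84 ± 0.37). That none of these 4 genes overlapped between the genotypes follows from this choice.

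Among the other large rises, EXO, a protein of brassinosteroid-dependent growth, rose from 48.6, 34.3 and 33.9 CPM to 281, 286 and 155 CPM (log2 change 2.59 ± 0.28). The arabinogalactan protein gene AGP17 rose from 11.4, 11.3 and 9.72 CPM to 48.7, 58.6 and 48.7 CPM (2.26 ± 0.18), and the potassium transporter HAK5 from 16.2, 20.5 and 44 CPM to 108, 125 and 142 CPM (2.34 ± 0.29). PORA, which reduces protochlorophyllide in the light during greening, rose from 32.2, 43.1 and 29.4 CPM to 154, 124 and 182 CPM (2.14 ± 0.31, limma adjusted p = 7.39e-06). MBP1, which binds the defence enzyme myrosinase, was the most variable of these, at 5.74, 44.7 and 16 CPM in wild type and 175, 91.9 and 119 CPM in sys123 (2.95 ± 0.56). RLP6 (2.24), MYB47 (2.19), CEP1 (2.13) and DAA1 (2.07) also rose by over 4-fold, as did MAF5, which is given with the floral repressors.

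Among the largest falls under the same conditions, LBD11, of a family that acts at organ boundaries and in the cambium, fell from 12.9, 12.8 and 11.5 CPM to 1.61, 1.13 and 0.72 CPM (log2 change -3.45 ± 0.32, limma adjusted p = 4.17e-09). CYP707A2, an enzyme that breaks down abscisic acid, fell from 7.78, 7.93 and 9.24 CPM to 0.744, 0.635 and 1.03 CPM (-3.33 ± 0.2). WRKY46, a transcription factor of stress and basal defence, fell from 15.2, 10.2 and 10.2 CPM to 0.933, 0.907 and 1.59 CPM (-3.35 ± 0.41). For each of these genes the highest mutant library lay at a small fraction of the lowest wild-type library. ERF11, a repressor of ethylene-type response genes, fell from 23.2, 14.5 and 19.7 CPM to 3.69, 2.04 and 1.9 CPM (-2.93 ± 0.51). DIC2, a mitochondrial dicarboxylate carrier, fell from 67.1, 37.8 and 46 CPM to 7.68, 7.93 and 3.66 CPM (-3 ± 0.51). Both lay below wild type in every library, as the choice of genes required. NAS3, a nicotianamine synthase, fell from 11.7, 15 and 21.2 CPM to 2.86, 1.85 and 1.48 CPM (-2.94 ± 0.4), and IPS1, a noncoding RNA induced by phosphate starvation, from 8.49, 8.46 and 7.1 CPM to 0.654, 1.48 and 0.251 CPM (-3.57 ± 0.75). RTFL12, a small peptide of the ROTUNDIFOLIA family, had the largest fall under these conditions (-4.30 ± 0.58), from a low and variable level of 7.25, 1.5 and 3.03 CPM. FRB1 (-2.73) and the receptor kinase RLK1 (-2.71) completed the largest falls together with PCC1, LURP1, ACS11 and GPT2, described with their groups.

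The 30 gene lists examined are described by the number of members that rose or fell, against the 14.2% and 12.8% of all tested genes, and by the median log2 change of the tested members, against 0.01 for all genes. The lists hold 521 genes, of which 509 were tested, and no test of a list was made. Where members are said not to overlap between genotypes, the same held for 3069 of the 3309 rises and 2763 of the 2991 falls over all genes.

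**Figure D3:**
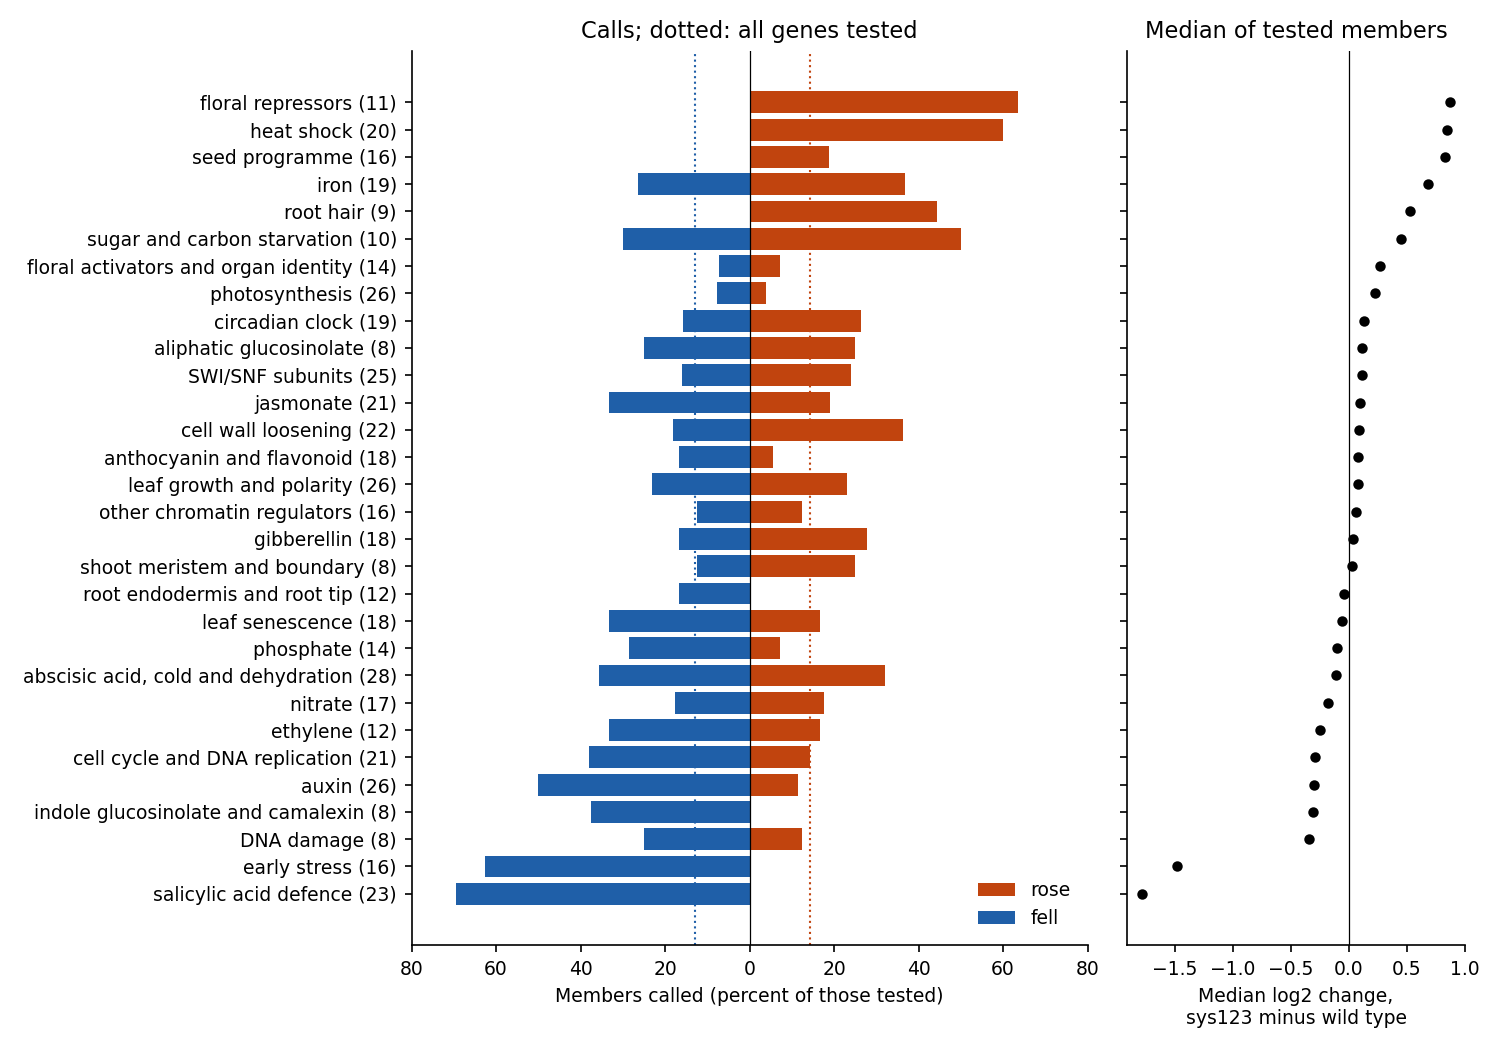
Left, percent of the tested members of each gene list (number in brackets) that rose (right of 0) or fell (left of 0) in sys123, with dotted lines at 14.2% and 12.8% for all genes tested. Right, the median log2 change of the tested members, from -1.78 for salicylic acid defence to 0.87 for floral repressors.

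Salicylic acid is the hormone of defence against pathogens that feed on living tissue; EDS1 and PAD4 act upstream of its synthesis, NPR1 receives it, and WRKY factors carry the response. In this list 16 of 23 tested members fell and none rose, with a median log2 change of -1.78; 12 of the falls were held in every leave-one-out fit, and all 16 were also called by edgeR's test on whole reads. Without wild-type replicate 2 the list had 14 falls and 1 rise. PCC1, a small protein induced by pathogens and salicylic acid, fell from 26.9, 40.7 and 29.9 CPM to 1.46, 5.07 and 0.834 CPM (log2 change -4.08 ± 0.75, limma adjusted p = 0.000139). LURP1, a late response gene to a downy mildew, fell from 11.3, 33.1 and 5.28 CPM to 0.719, 5.01 and 0.173 CPM (-3.74 ± 0.78), where the highest mutant library was just under the lowest wild-type library. WRKY70 fell from 33.2, 38.8 and 22.1 CPM to 4.05, 4.7 and 6.24 CPM (-2.62 ± 0.3), well clear of wild type. Its close relative WRKY54 fell from 2.97, 3.55 and 2.81 CPM to 0.237, 0.717 and 0.334 CPM (-2.86 ± 0.45), and ALD1, an enzyme of systemic immunity, fell from low levels of 1.44, 1.13 and 1.13 CPM (-3.34 ± 0.52). The transcription factor CBP60G, an activator of salicylic acid synthesis, fell from 21.9, 21 and 19.4 CPM to 5.61, 4.92 and 5.88 CPM (-1.92 ± 0.37). EDS5 fell by 1.26, EDS1 by 0.75 and PAD4 by 0.59 on the log2 scale, less than the members given above. The synthesis enzyme ICS1 was read at 15.6, 17.1 and 13.3 CPM in wild type and 13.6, 15.1 and 14 CPM in sys123 and did not pass the test (limma adjusted p = 0.553). The classical response genes PR1 and BGL2 (also called PR2) did not pass either; BGL2 was read at 2.15, 55.1 and 2.3 CPM in wild type and 3.1, 4.94 and 0.511 CPM in sys123. Wild-type replicate 2 was thus far above the other 5 libraries for BGL2, and it was also the highest for PR1, PR5, PCC1 and LURP1.

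Early stress genes are transcription factors and calcium proteins induced within minutes of wounding, touch or pathogen signals. Of 16 tested members 10 fell and none rose (median -1.48), and 9 of the falls were held in every leave-one-out fit. WRKY40 fell from 68.6, 32.2 and 45.1 CPM to 9.68, 8.3 and 6.24 CPM (log2 change -2.54 ± 0.5, limma adjusted p = 0.000303) and WRKY33, a regulator of camalexin synthesis, from 241, 201 and 222 CPM to 77.3, 63 and 54.3 CPM (-1.78 ± 0.38). The zinc finger gene SZF1 fell from 204, 134 and 147 CPM to 45, 43.6 and 36 CPM (-1.95 ± 0.35), and FBS1, an F-box protein of stress responses, from a wild-type range of 30.5 to 48.1 CPM to a mutant mean of 6.84 ± 3.12 CPM (-2.68 ± 0.42). ZAT10 (-1.88) and ZAT12 (-1.78), zinc finger factors of oxidative and cold stress, fell as well. No mutant library reached the lowest wild-type library for any of these 6 genes, as was the case for 2763 of the 2991 genes that fell. Wild-type replicate 1 was the highest wild-type library for all of them. ERF6, with a wild-type mean of 35.8 CPM and a sys123 mean of 35.9 CPM, and MYB44, at 153 and 122 CPM, did not pass the test. Camalexin and indole glucosinolate genes, which act in chemical defence, had 3 falls and no rise among 8 members: MYB51 fell by 1.62, PAD3 by 1.5 and CYP79B2 by 0.95 on the log2 scale.

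Abscisic acid signals drought, and CBF factors act in the cold. Of 28 tested members 9 rose and 10 fell (median -0.11), and 5 rises and 8 falls were held in every leave-one-out fit. CBF1, a factor that switches on cold-induced genes, fell from 26.7, 24 and 22.5 CPM to 4.95, 3.88 and 3.13 CPM (log2 change -2.62 ± 0.47, limma adjusted p = 0.00011), and its neighbours CBF2 and DREB1A fell by 2.38 and 1.86 on the log2 scale. The 3 CBF genes are close copies and reads may have been split among them. NCED3, which makes the abscisic acid precursor under drought, fell from 176, 177 and 121 CPM to 37.8, 24.7 and 39.3 CPM (-2.22 ± 0.4). PP2CA, a phosphatase that restrains abscisic acid signalling, fell from 228, 246 and 213 CPM to 79.5, 67 and 70.8 CPM (-1.66 ± 0.24). The breakdown enzymes CYP707A1 and CYP707A3 fell by 1.03 and 1.04, beside CYP707A2 above. The phosphatases ABI1, ABI2 and HAI2 were the other members that fell. Beside LTI65, COR15A, which protects chloroplast membranes in the cold, rose from 174, 200 and 147 CPM to 506, 311 and 568 CPM (1.37 ± 0.33, limma adjusted p = 0.00215), COR15B by 1.43, KIN2 by 0.88 and COR47 by 0.79. RAB18 (1.58), RD29A (0.97), the phosphatase HAI3 (1.88) and the factor ABF3 (0.67) rose too, but their calls were not held when single libraries were left out. No member named here as risen or fallen overlapped between genotypes, as was the case for most called genes.

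Promoters of 1 gene that rose and 1 that fell in this list, and of 2 genes from the defence lists, are shown to set the changes beside short DNA words that known factors bind. Each sequence is the 250 bases before the annotated gene start, taken from the RefSeq TAIR10.1 assembly by locus tag, 5′ to 3′ on the gene's own strand; the deposited values were made on TAIR10, and the look-up used TAIR10.1 alone. Capitals mark the word searched, on either strand, and overlapping matches are 1 stretch. In LTI65, which rose, and PP2CA, which fell, the word is ACGTG, the core that abscisic acid response factors bind. In SZF1 it is TTGAC, the core of the W-box bound by WRKY factors, and in PCC1 it is TGACG, the core bound by TGA factors.
LTI65 (chromosome 5, forward strand): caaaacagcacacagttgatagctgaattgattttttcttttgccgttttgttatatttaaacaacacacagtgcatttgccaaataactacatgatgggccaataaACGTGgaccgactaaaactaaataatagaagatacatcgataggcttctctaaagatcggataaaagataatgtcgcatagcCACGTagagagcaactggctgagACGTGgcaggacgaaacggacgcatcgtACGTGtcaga
PP2CA (chromosome 3, reverse strand): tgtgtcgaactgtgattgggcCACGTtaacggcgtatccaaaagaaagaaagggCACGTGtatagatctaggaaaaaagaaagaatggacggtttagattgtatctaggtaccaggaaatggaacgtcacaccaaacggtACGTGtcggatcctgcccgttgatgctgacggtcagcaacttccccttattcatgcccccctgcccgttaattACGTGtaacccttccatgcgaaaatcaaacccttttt
SZF1 (chromosome 3, forward strand): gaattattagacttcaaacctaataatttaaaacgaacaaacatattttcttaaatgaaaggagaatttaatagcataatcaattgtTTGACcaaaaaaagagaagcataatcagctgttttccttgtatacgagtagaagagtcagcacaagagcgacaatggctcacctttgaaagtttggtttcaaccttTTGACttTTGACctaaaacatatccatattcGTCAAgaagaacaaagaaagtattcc
PCC1 (chromosome 3, reverse strand): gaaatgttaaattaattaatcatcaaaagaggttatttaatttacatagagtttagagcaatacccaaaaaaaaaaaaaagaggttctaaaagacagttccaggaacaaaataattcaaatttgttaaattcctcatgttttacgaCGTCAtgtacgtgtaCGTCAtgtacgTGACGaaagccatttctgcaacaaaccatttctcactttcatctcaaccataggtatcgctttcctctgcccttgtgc
LTI65 and PP2CA each hold 4 stretches of ACGTG while their transcripts moved in opposite directions, so this word did not separate them. SZF1 holds 4 stretches of TTGAC and PCC1 holds 3 of TGACG. Among the abscisic acid list, 6 of 9 members that rose and 5 of 10 that fell hold ACGTG. Among the early stress list, 8 of 10 members that fell hold TTGAC. Among the salicylic acid list 5 of 16 members that fell hold TTGAC, and as many hold TGACG.

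Across all 23296 promoters with 250 bases, ACGTG was in 23.8%, against 31.5% of genes that rose at least 2-fold and 28.9% of those that fell at least 2-fold. TTGAC was in 45.2% of all, 43.5% of the risen and 52.3% of the fallen genes. The word CGCGT, a core of the sites of calmodulin-binding CAMTA factors, was in 7.38% of all, 6.62% of the risen and 12% of the fallen. Of the words given here the widest gap was for TGGGCC, a word of growth genes bound by TCP factors, which was in 15.2% of all promoters, 10.9% of the risen and 4.61% of the fallen. TGACG (19.3% of all, 20.4% and 23%) and the cold and drought word CCGAC (12.5%, 14.4% and 11.3%) lay nearer the background. These shares are descriptions of this window, and a word is not by itself a binding site.

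**Figure D4:**
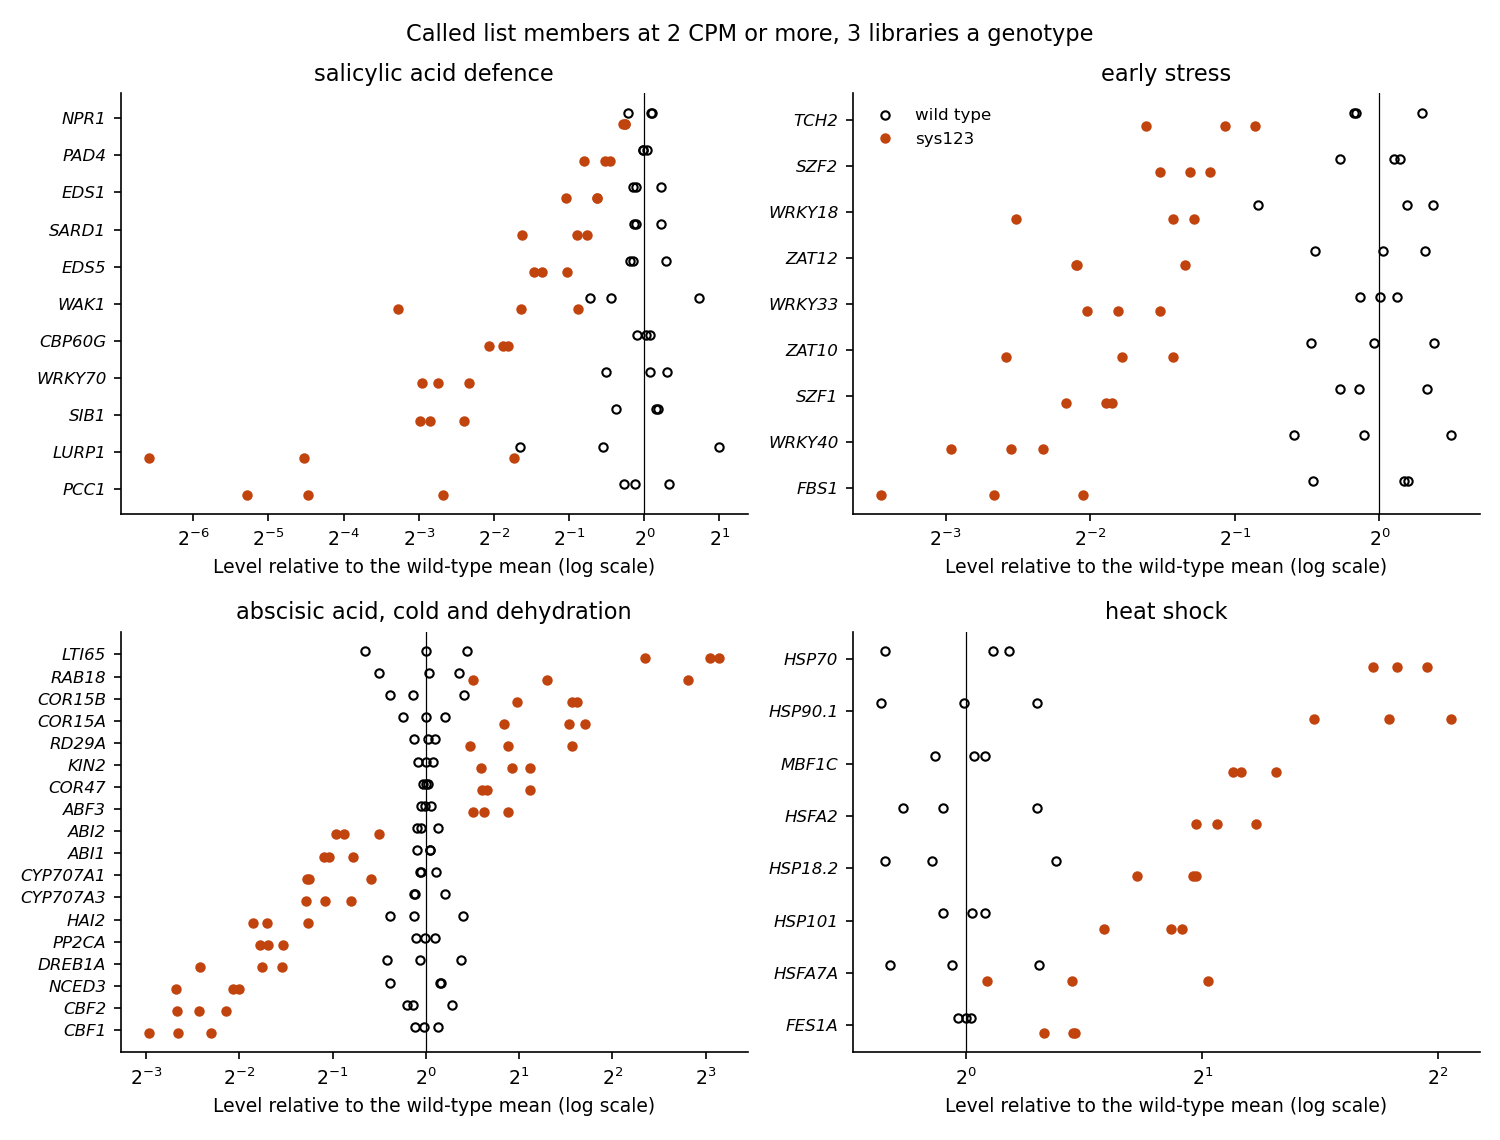
Level in each library relative to the wild-type mean (horizontal axis, log scale) for called members at 2 CPM or more of 4 gene lists, with 3 open points for wild type and 3 filled points for sys123. Salicylic acid and early stress members lie left of wild type and heat shock members right of it, while abscisic acid and cold members fall on both sides.

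Heat shock genes were the opposite of the early stress genes in direction. Of 20 tested members 12 rose and none fell (median 0.85), and 8 of the rises were held in every leave-one-out fit; without wild-type replicate 2 there were 9 rises and 1 fall. The chaperone gene HSP70 (AT3G12580) rose from 26.2, 37.8 and 36 CPM to 129, 118 and 110 CPM (log2 change 1.85 ± 0.24, limma adjusted p = 9.64e-07), and HSP90.1 from 13.8 to 21.8 CPM in wild type to 61.3, 73.6 and 49.2 CPM in sys123 (1.8 ± 0.28). MBF1C, a coactivator of heat tolerance, rose from 15.8, 17.7 and 18.3 CPM to 43, 38.8 and 37.9 CPM (1.21 ± 0.2). The genotypes did not overlap for these 3, as was the case for 3069 of the 3309 genes that rose. The small chaperones HSP23.6 (2.86) and HSP17.6A (2.76) and the factor HSFA7B (2.49) rose from levels under 1 CPM, where the log2 value depends on the pseudocount. The heat factors HSFB1 and HSFB2B did not pass the test.

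Jasmonate genes respond to wounding and to feeding insects; JAZ proteins are repressors that the hormone itself induces. Of 21 tested members 7 fell and 4 rose, all 11 held in every leave-one-out fit. JAZ1 fell from 156, 90.8 and 124 CPM to 29.4, 28 and 17.7 CPM (log2 change -2.30 ± 0.32, limma adjusted p = 3.49e-06), and JAZ5 (-1.83), JAZ10 (-2.06) and JAZ8 (-2.84) fell with it. JAZ9 (1.12) and, outside the list, JAZ6 (0.71) rose, so the JAZ genes changed in both directions. LOX4, a lipoxygenase at the start of jasmonate synthesis, fell from 88.2, 52.9 and 46.6 CPM to 12.2, 11.3 and 9.67 CPM (-2.44 ± 0.4). ERF1, a factor shared by jasmonate and ethylene, fell from a low level (-3.18 ± 0.42). AOC1, an allene oxide cyclase, rose from 41.9, 52.7 and 55.8 CPM to 213, 112 and 169 CPM (1.68 ± 0.3, limma adjusted p = 9.36e-05), and AOC2 by 1.42, with no overlap between genotypes. The thionin THI2.1 had the largest rise of the list (4.11 ± 0.68) but reached only 3.76 CPM at most. In the ethylene list 4 of 12 members fell and 2 rose. ACS11, a synthase of the ethylene precursor, fell from 5.47, 2.49 and 4.19 CPM to 0.281, 0.228 and 0.557 CPM (-3.38 ± 0.31), and ACS8 fell by 1.28, while ACS2 rose by 0.86; the list had 1 rise without wild-type replicate 3, sys123 replicate 1 or sys123 replicate 2.

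Auxin drives cell elongation and organ outgrowth; YUCCA enzymes make it, and IAA and GH3 genes respond to it rapidly. In this list 13 of 26 tested members fell and 3 rose (median -0.30), with 10 of the falls held in every leave-one-out fit. The SAUR genes, a family named for induction by auxin and grouped by symbol after the values were seen, went the other way. Of 16 tested 6 rose and none fell (median 0.31), and of these rises SAUR27 (0.72) was held in every leave-one-out fit. YUC9 fell from 40.2, 50.2 and 32.5 CPM to 11.2, 9.75 and 6.39 CPM (log2 change -2.18 ± 0.21, limma adjusted p = 1.04e-08). IAA29, a gene also induced by shade and warmth, fell from 94.1, 122 and 80.1 CPM to 37.6, 25.9 and 22.6 CPM (-1.79 ± 0.22), IAA6 by 1.8 and GH3.3 by 1.15. Of the 3 members that rose, IAA14 (0.40) and PIN3 (0.30) were not held in every leave-one-out fit and the list had 1 rise without sys123 replicate 1. SHY2, the repressor IAA3, rose from 29.9, 31.9 and 25.5 CPM to 59.3, 55.2 and 66.7 CPM (1.06 ± 0.15). YUC9, IAA29, IAA6, GH3.3 and SHY2 did not overlap between genotypes, as was the case for most called genes. Gibberellin genes had 5 rises and 3 falls among 18. The synthesis gene GA20OX2 rose from 3.95, 4.41 and 2.99 CPM to 8.96, 11.7 and 10.7 CPM (1.46 ± 0.19), the receptor GID1B rose by 0.64, and the breakdown enzyme GA2OX2 fell by 1.5, while GA2OX7 rose by 2.29 from under 0.1 CPM.

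Floral repressors delay flowering, and 7 of 11 tested members rose and none fell (median 0.87), with 6 rises held in every leave-one-out fit; scaled by library totals 6 rose and 1 fell, and without wild-type replicate 2 there were 7 rises and 1 fall. FLC, the repressor that vernalisation silences, rose from 0.271, 0.449 and 0.351 CPM to 2.97, 2.89 and 2.6 CPM (log2 change 2.86 ± 0.52, limma adjusted p = 0.000113). Its relative MAF5 rose from 0.676, 0.943 and 0.741 CPM to 5.66, 5.87 and 5 CPM (2.75 ± 0.41). Both stayed at a few CPM but with no overlap. TEM1 and TEM2, repressors of FT and of gibberellin synthesis, rose from means of 34.9 and 52.1 CPM (log2 changes 0.92 ± 0.15 and 0.95 ± 0.18), and SMZ (0.89) and TOE1 (0.46) rose as well. MAF2, MAF3 and FLM, relatives of FLC at 10.9 to 41.2 CPM in wild type, did not pass the test. Floral activators and organ identity genes showed 1 rise and 1 fall among 14, neither held when single libraries were left out; FT was at 0.494, 0.229 and 0.674 CPM in wild type and at 0.0967, 0.403 and 0.19 CPM in sys123 (limma adjusted p = 0.239).

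Genes of leaf growth changed in both directions, with 6 rises and 6 falls among 26 (median 0.08). GRF5, GRF1 (0.47) and GRF3 (0.40) are growth-regulating factors that rose. AN3, a partner of such factors in leaf cell proliferation that is counted in the list of SWI/SNF subunits and not here, rose as well. GRF5 went from 2.03, 4 and 3.61 CPM to 12.5, 10.3 and 11.9 CPM (log2 change 1.89 ± 0.32, limma adjusted p = 5.01e-05), and AN3 went from 4.82, 6.3 and 8.52 CPM to 12.3, 11 and 11.8 CPM (0.87 ± 0.19). The polarity factor KAN1 rose by 0.75 and TCP10, which limits leaf growth, by 0.59. YAB2, a factor of the lower leaf side, fell from 17.9, 19.6 and 14.5 CPM to 4.6, 4.92 and 6.11 CPM (-1.72 ± 0.12, limma adjusted p = 1.99e-11), YAB5 fell by 0.70, and NGA3, which shapes leaf margins, fell by 1.73. Shoot meristem genes had 2 rises and 1 fall among 8, none held in every leave-one-out fit. In the cell cycle list 8 of 21 members fell and 3 rose (median -0.29), with 1 rise without wild-type replicate 1 or any 1 of the sys123 replicates. The members that fell were mostly of the machinery that starts DNA replication. PCNA1, the sliding clamp, fell from 11.5, 11 and 15.4 CPM to 7.84, 7.81 and 7.07 CPM (-0.72 ± 0.14), the helicase subunits MCM2, MCM3, MCM4 and MCM6 fell by 0.49 to 0.55, and the licensing factor CDT1A by 0.53. CYCD3;1, a cyclin of cell cycle entry, rose from 31.5, 27.6 and 35.4 CPM to 43.8, 44 and 46.7 CPM (0.52 ± 0.1).

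Cell wall loosening genes, expansins and xyloglucan enzymes, had 8 rises and 4 falls among 22. Beside EXO, TCH4, a xyloglucan enzyme induced by touch and brassinosteroid, rose from 82.7, 50.6 and 46.4 CPM to 249, 234 and 204 CPM (log2 change 1.98 ± 0.37, limma adjusted p = 0.000193), and XTH9 from 105, 120 and 108 CPM to 265, 267 and 237 CPM (1.21 ± 0.14). EXLB1, an expansin-like gene, fell from 9.43, 8.42 and 7.29 CPM to 1.43, 1.13 and 1.18 CPM (-2.71 ± 0.24), and EXPA10 fell by 1.16. Touch-induced genes lay on both sides: TCH4 rose while TCH2, a calmodulin-like gene of the early stress list, fell by 1.16. Root hair genes had 4 rises and no fall among 9, of which PRP3 (1.09) was held in every leave-one-out fit; without wild-type replicate 1 or sys123 replicate 1 there was 1 rise. In the endodermis and root tip list WOX5, which marks the quiescent centre, fell from 0.992, 1.26 and 1.37 CPM to 0.419, 0.585 and 0.38 CPM (-1.32 ± 0.25).

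Leaf senescence genes had 6 falls and 3 rises among 18 (median -0.06), with 1 rise without sys123 replicate 1 or 3. The factors NAC6 (ORE1), NAP, ORS1 and WRKY53, which push leaves into senescence, all fell. WRKY53 was read at 30.9, 31.2 and 31 CPM in wild type and at 5.62, 7.08 and 4.91 CPM in sys123 (log2 change -2.41 ± 0.4, limma adjusted p = 4.74e-05), and NAP at 35.2, 42.3 and 29.6 CPM and 11.2, 8.54 and 7.83 CPM (-1.96 ± 0.25). NYE2, which starts chlorophyll loss, fell by 1.97. SEN1, a gene induced by dark and sugar loss, rose from 301, 334 and 219 CPM to 1200, 1060 and 1060 CPM (1.98 ± 0.23). Other genes of carbon shortage rose with it: MCCA, which breaks down leucine, from 88.2, 87.6 and 62.4 CPM to 179, 169 and 201 CPM (1.22 ± 0.18) and ASN1 (1.12), which makes asparagine. In that list 5 of 10 members rose (3 without wild-type replicate 3 or sys123 replicate 3) and 3 fell, and GPT2, a plastid sugar phosphate carrier induced by sugar, fell from 2.88, 4.58 and 3.24 CPM to 0.238, 0.761 and 0.334 CPM (-3.01 ± 0.48). Photosynthesis genes showed 1 rise (PORA) and 2 falls among 26 (median 0.23), but 8 rises and no fall without wild-type replicate 2.

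Clock genes depend on the time of day, which the labels do not give. Of 19 tested members 5 rose, 2 of them in every leave-one-out fit, and 3 fell. Without sys123 replicate 3 the list had 2 rises and 4 falls, and without wild-type replicate 3 it had 3 and 3. The morning factor CCA1 fell from 47.9, 38.6 and 44.3 CPM to 26.8, 20.7 and 12.8 CPM (log2 change -1.18 ± 0.24, limma adjusted p = 0.00057), and PRR9 and RVE8, also morning genes, fell by 0.91 and 0.75. COR27, a cold and light regulated clock gene, rose by 1.57 and the evening photoreceptor ZTL by 0.39. TOC1, at 74.7 CPM in wild type on average, did not pass the test (limma adjusted p = 0.497).

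Mineral nutrition genes were called in both directions, where 14.2% of all tested genes rose and 12.8% fell. In the iron list 7 of 19 members rose and 5 fell (median 0.68), but no rise was held in every leave-one-out fit. The iron transporter IRT1, chosen after its values were seen, was read at 15.5, 10.4 and 7.31 CPM in wild type and at 42.6, 78.6 and 11.5 CPM in sys123, and the reductase FRO2 at 5.07, 4.1 and 3.03 CPM and 28, 50.3 and 5.5 CPM. The regulators BHLH38 and IMA2 showed the same split, with sys123 replicates 1 and 2 at 12.4 to 16.2 CPM and replicate 3 at 1.2 and 1.05 CPM. Replicate 3 therefore lay at the wild-type level; without it 11 members rose, and without replicate 1 or replicate 2 none did. The storage protein FER4 had the reverse pattern, at 40.2, 49 and 47.8 CPM in wild type and 9.18, 11.8 and 34.7 CPM in sys123 (-1.54 ± 0.27). Phosphate genes had 4 falls and 1 rise among 14: the transporters PHT1;1 and PHT1;4 fell by 0.83 and 0.99, and PHO2, which removes such transporters, rose by 1 on the log2 scale. In the nitrate list 3 of 17 members rose and 3 fell, near the shares of all tested genes, or 9 fell when scaled by library totals. NRT2:1, a high-affinity transporter, rose by 1.66 and NIA1, a nitrate reductase, by 0.68, while UPM1, which makes sirohaem for nitrite reduction, fell from 263, 306 and 330 CPM to 115, 129 and 113 CPM (-1.33 ± 0.11, limma adjusted p = 1.1e-09).

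The remaining lists are given in brief, against the 14.2% and 12.8% of all tested genes that rose and fell. Aliphatic glucosinolate genes had 2 rises (none without wild-type replicate 3 or sys123 replicate 3) and 2 falls among 8, with MYB28 (-0.38) the one held in every leave-one-out fit. Anthocyanin and flavonoid genes had 1 rise and 3 falls among 18, led by the flavonol regulator MYB12 (-1.17). DNA damage genes had 1 rise, GMI1 (1.32), and 2 falls among 8, including BRCA1 (-0.65). Seed programme genes had 3 rises among 16 and a median log2 change of 0.83, with no rise held in every leave-one-out fit and 1 rise without sys123 replicate 3; the seed and embryo markers summed to 1.12 to 1.3 CPM in wild type and 2.02 to 6.01 CPM in sys123, and 4 of these 6 were under 1 CPM in both genotypes.

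Of the 22 subunit genes beside the SYS genes, 6 rose and SWI3D fell (-0.24 ± 0.09, limma adjusted p = 0.0465), a call that was not held in every leave-one-out fit. SYD was read at 151, 156 and 130 CPM in wild type and at 167, 156 and 154 CPM in sys123 and did not pass the test (limma adjusted p = 0.44). BRD1, a bromodomain subunit of BRM complexes, rose from 36.3, 35.6 and 31 CPM to 49.7, 49.9 and 40.7 CPM (0.44 ± 0.1), and ARP4 rose by 0.26. The largest rise among the subunits was that of AN3 (0.87), given with leaf growth. Scaled by library totals, 2 of these 22 rose and 1 fell. Among 16 other chromatin regulators ULT1, a Trithorax-type factor, fell from 15, 14 and 13.4 CPM to 8.03, 9.03 and 8.48 CPM (-0.73 ± 0.13).

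The sys123 libraries were next compared directly with the 3 syd libraries, labelled as mutant in the ATPase gene SYD, without using wild type. There 2145 genes (9.21%) were higher and 2109 (9.05%) lower in sys123. The most negative differences included genes with few or no reads in wild type and sys123 that were read at high levels in syd. The MADS-box gene AGL67 was at 426 ± 33.4 CPM (SD, n = 3) in syd, and at no more than 0.119 CPM in any wild-type or sys123 library. VIN3, a gene of vernalisation, was at 52.1 ± 3.69 CPM in syd and 0.277 CPM at most in those 6 libraries, and NTL8, a membrane-bound NAC factor, at 160 ± 32.4 CPM and 0.79 CPM at most. HAI3 and AGL55 were also lower in sys123 than in syd (log2 differences -5.4 and -5.25). Genes higher in sys123 than in syd included MBP1 (175, 91.9 and 119 CPM against 22.2 ± 9.72 CPM), the jasmonate enzyme AOC1 (log2 difference 2.45 ± 0.3, limma adjusted p = 4.08e-07), BGLU18, which frees stored abscisic acid (2.36 ± 0.38), the squalene epoxidase SQE6 (2.55 ± 0.22) and the lipid transfer gene LTP4 (2.97 ± 0.69).

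Several groups that changed against wild type were also called between sys123 and syd, against a background of 9.21% and 9.05% of genes. Of 20 heat shock members 9 were higher and 1 lower in sys123 than in syd; HSP70 was at 44.5 CPM in syd on average and lower than sys123 (log2 difference 1.43, limma adjusted p = 5.14e-05). Of 26 auxin members 11 were higher and none lower in sys123. Of 16 early stress members 7 were lower and none higher in sys123; SZF1 was at 135 CPM in syd (difference -1.29, limma adjusted p = 0.00947). CBF1, at 19.9 CPM in syd, was also lower in sys123 (difference -1.87, limma adjusted p = 0.00513). For salicylic acid defence 4 of 23 were lower and none higher in sys123, and PCC1, at 3.05 ± 3.21 CPM in syd, did not differ beyond error (difference -0.16 ± 0.75). FLC and MAF5, at 2.26 and 7.47 CPM in syd, did not pass the test of the difference either (limma adjusted p = 0.731 and 0.529).

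Against swi3d, 1974 genes (8.47%) were higher and 1631 (7%) lower in sys123. SWI3D itself was the clearest difference, at 38.7, 37.4 and 33.7 CPM in sys123 and 7.65 ± 1.22 CPM in swi3d (log2 difference 2.26 ± 0.09, limma adjusted p = 2.64e-17), the gene mutated in swi3d. Among other genes higher in sys123 were the salt gene SIS (1.92 ± 0.31), the drought-induced linker histone HIS1-3 (1.8 ± 0.33), the phosphatase HAI1 (1.8 ± 0.4) and ERF8 (1.64 ± 0.26). Genes lower in sys123 included the plant defensins PDF1.2 (4.19 ± 2.39 CPM in swi3d) and PDF1.3 (5.23 ± 1.9 CPM), the amylase BAM5 (72.0 ± 54.8 CPM in swi3d against 3.11, 4.59 and 1.21 CPM), GPT2 (-3.03 ± 0.48) and GAD4 (-1.93 ± 0.33). Of 23 salicylic acid defence members 6 were lower and none higher in sys123 than in swi3d. Of 16 early stress members 1 was lower and none higher, and SZF1 at 44.7 CPM in swi3d did not pass the test (difference -0.06, limma adjusted p = 0.932). Heat shock members were higher in 3 of 20 and lower in none. In the cell cycle list 7 of 21 were lower in sys123 than in swi3d, and in the list of cell wall genes 7 of 22. In all, 16566 genes were called against neither syd nor swi3d, which does not show that they act alike, and 630 genes differed from wild type and in the same direction from both mutants. Leaving out sys123 replicate 1, sys123 replicate 3 or swi3d replicate 1 took the genes higher in sys123 than in swi3d from 1974 to 1151, 1215 and 986, and those lower from 1631 to 983, 818 and 757.

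Finally, sys123 was set against all 11 other genotypes, wild type included. It was higher than every one of them for 146 genes (0.627%) and lower for 69 (0.296%) with all 11 contrasts called in 1 direction. Without sys123 replicate 1 or 3 the number of higher genes went to 64 and 71. PORA, at 124 to 182 CPM in sys123, was at 0.559 to 75.2 CPM in the other 33 libraries, and its smallest log2 difference from any genotype was 1.18. P5CS1, the rate-limiting enzyme of proline synthesis, was read at 1570, 1080 and 1520 CPM in sys123, at 543, 619 and 476 CPM in wild type and at 66.8 to 895 CPM over the other 33 libraries. HIS1-3 was read at 103, 79.4 and 142 CPM against 1.72 to 60.8 CPM in the others, and AAH, an enzyme of ureide breakdown that frees nitrogen, at 99.4, 88.1 and 79.8 CPM against 14.7 to 53.3 CPM. No library of another genotype reached the lowest sys123 library for these 4 genes. They were chosen in the same libraries for their distance from every genotype, so this is a description and not further support. AT2G25200, AT3G61160, AT3G10020 and AT1G21670 were the other genes in the first 8 by the smallest difference from any genotype; AT3G10020, for example, was at 530, 490 and 594 CPM against 54.6 to 361 CPM.

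On the low side ACS11 was read at 0.281, 0.228 and 0.557 CPM in sys123 and at 1.14 to 31.6 CPM in the other 33 libraries, with a smallest log2 difference of 1.81. CYP707A2 was read at 0.744, 0.635 and 1.03 CPM against 1.15 to 9.24 CPM, and AT5G47050 at 4.09, 3.93 and 4.93 CPM against 6.39 to 22.6 CPM. GATL10, of a family of cell wall glycosyltransferases, was at 3.79, 3.29 and 2.09 CPM against 3.86 to 14.2 CPM, so its highest sys123 library came close to the lowest of the others. ZAT7, a zinc finger factor of stress responses, had 0.0932 CPM at most in sys123 and 0.347 to 5.87 CPM elsewhere. AT1G68600, AT3G59930 and AT4G17680 were lower by at least 0.9 on the log2 scale in every contrast. All 3 sys123 libraries lay above all 33 others for 380 genes and below them for 177.

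**Figure D5:**
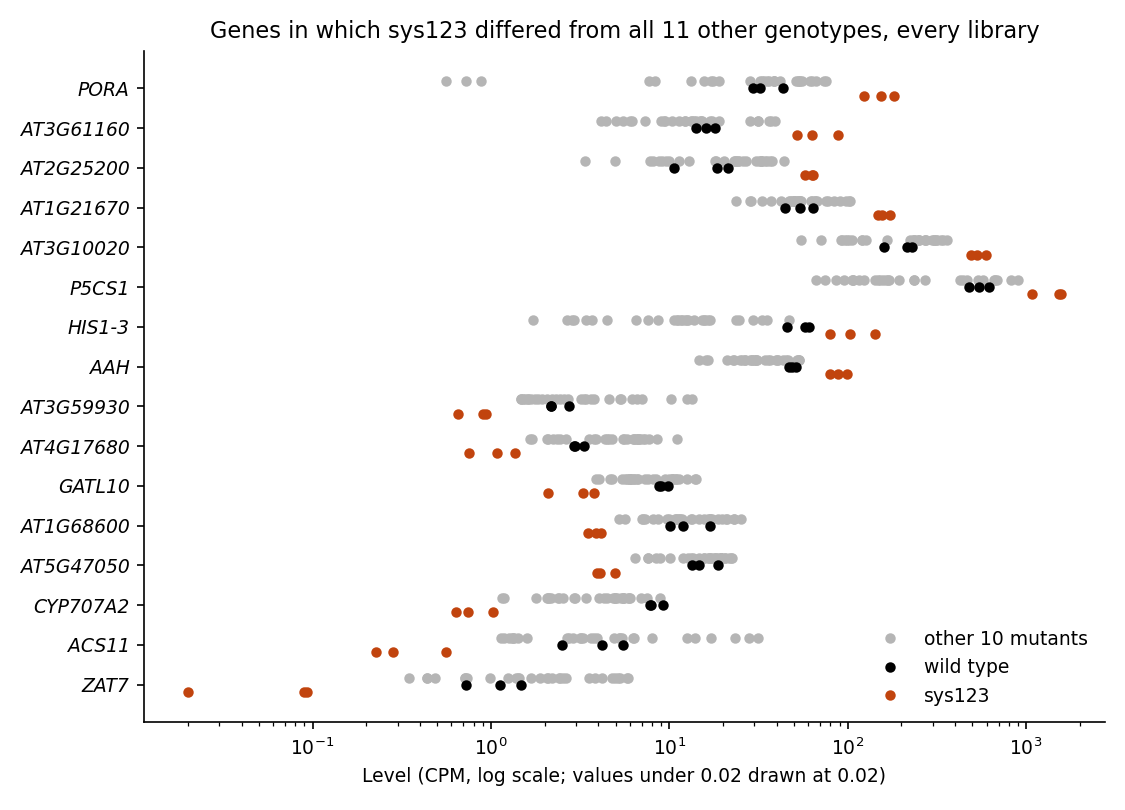
Level in CPM (horizontal axis, log scale; values under 0.02 drawn at 0.02) in all 36 libraries of 8 genes that were higher and 8 that were lower in sys123 than in each of the other 11 genotypes. The 3 sys123 points lie outside the points of all other libraries for each gene, most closely for GATL10 (3.79 against 3.86 CPM). The genes were chosen from these same libraries for their distance from every genotype.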

How the data were processed

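Total RNA had been extracted with TRIzol and sequenced on a BGISEQ500, per the labels' protocols; HISAT2, edgeR and the TAIR10 build are named in the submitters' processing notes, with no versions. The deposited signal values per gene have the form of edgeR pseudo-counts, reads adjusted by quantiles to a common library size; this was read from the values, since no label states it. Inverting that adjustment gave whole reads for 99.9997% of 1171728 deposited values (tolerance factor 0.01), between 21070583 and 23761910 reads per library. CPM is the deposited value over the common library size. Since they are not raw counts, the main test was limma (3.58.1, R 4.3.3) with a trend on log2(value + 1), fitted to all 36 libraries with a term per genotype, on the 23297 genes whose value averaged 1 or more over the libraries, with Benjamini-Hochberg adjustment and a threshold of 0.05. Fold changes are on that scale, which understates changes of low genes. edgeR 4.0.16 and DESeq2 1.42.0 on the whole reads, other scalings, filters and pseudocounts, a fit of the groups compared alone, a replicate block and leaving out each library were alternatives. The members and gene lists were chosen with earlier results of these data known. Genes named are the 14 largest rises and falls against wild type and the 5 most different in each direction from syd and swi3d. These had to be held in every leave-one-out fit and by edgeR, at 2 CPM or more, with a symbol. Their sys123 libraries also had to lie all above or all below those of the other genotype. Also named are 8 genes in each direction from all 11, up to 6 held members per list, SWI/SNF subunits and neighbours of the SYS genes. Other list members given with a change were chosen after their values were seen. Promoter sequences came from RefSeq TAIR10.1; all 32548 loci matched by locus tag.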

Additional observations from a re-analysis of the deposited data

How the results depend on the processing

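No called result changed direction under the alternatives run. Scaled by library totals, genes higher and lower in sys123 than in wild type were 2014 and 4343; those higher and lower than in syd 1335 and 3279, than in swi3d 1087 and 2577, and than in each of the other 11 genotypes 75 and 147. The share of calls that were higher fell with it, from 52.5% to 31.7% against wild type, from 50.4% to 28.9% against syd and from 54.8% to 29.7% against swi3d. With only the groups compared in the fit, 1874 genes were higher and 1769 lower than in wild type, and 1346 higher and 1084 lower than in syd; this fit holds fewer samples. Leaving out 1 library gave 1370 (without syd replicate 1) to 1887 genes higher and 1347 to 2079 lower than in syd, 986 (without swi3d replicate 1) to 1728 higher and 757 to 1499 lower than in swi3d, and 64 (without sys123 replicate 1) to 146 higher than in each of the other 11. The SYS3 log2 change was -0.24 with no filter (limma adjusted p = 0.0527), with the replicate block (0.0529) and with only the groups compared (0.174), and -0.34 to -0.18 over the leave-one-out fits. The cause of these shifts was not tested. Same-numbered sys123 and wild-type libraries did not deviate together (r = 0.013, 0.026 and -0.026 across genes). These values do not show whether such libraries shared a planting or a batch, and the labels do not say. With the replicate block 3324 genes were higher and 3043 lower than in wild type. Of the values for single genes and lists under the alternatives, 9194 kept their side of the threshold or their size, 379 lost the call, 132 gained one and 125 moved. At 1 CPM, about 23 reads, counting error alone is about 21%, so changes of genes under 1 CPM are the least certain.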

Other observations

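Gene families were also grouped by the stem of their symbols, a choice made after the values were seen and limited to stems with at least 10 tested members; no test was made on them. Of 11 CRF genes, which encode cytokinin response factors, 8 fell and none rose (median log2 change -0.71), where 14.2% of all tested genes rose and 12.8% fell. CRF10 fell from a mean of 43.9 to 21.1 CPM (log2 change -1.06 ± 0.12, limma adjusted p = 1.61e-07) and CRF2 from 23.1 to 14.1 CPM (-0.71 ± 0.16). The falls of CRF5 (-0.54) and CRF11 (-0.25) were not held in every leave-one-out fit. Of 61 WRKY genes 23 fell and 4 rose (median -0.43), a family that also holds members of the defence lists. Several of these falls, among them those of WRKY22 and WRKY28, were not held in every leave-one-out fit. Genes of peroxisome formation and of aldehyde removal moved the other way. Of 19 PEX genes 11 rose and 1 fell (median 0.19), among them PEX7, an import receptor, from 22.7 to 31.1 CPM (0.45 ± 0.08). The rises of PEX4, PEX10, PEX11E and PEX22 (log2 changes 0.16 to 0.32) and the fall of PEX3-1 were not held in every leave-one-out fit. Of 14 ALDH genes 8 rose and none fell (median 0.33), with ALDH7B4 going from 161 to 304 CPM (0.92 ± 0.14). The rises of ALDH11A3 (0.43), ALDH2C4 (0.37) and ALDH12A1 (0.46) were not held in every leave-one-out fit. OFP15, a relative of OFP16, rose from 11.1 to 40.4 CPM (1.86 ± 0.2).

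On chromosome 2, the range of locus tags AT2G07600 to AT2G07829 includes a stretch that resembles the mitochondrial genome. Likeness to that genome was not tested gene by gene, and the range also holds genes such as MCM5 and ABCC13. The range was chosen from the calls themselves, as it held the longest run of neighbours that rose together. Its counts are therefore a description and not a test. Of 90 tested genes in it 45 rose, 22 of them in every leave-one-out fit, and 2 fell. The median log2 change was 1.07, again where 14.2% of all tested genes rose and 12.8% fell. Only 6 of the 90 had a wild-type mean over 5 CPM, of which 3 rose and 2, MCM5 (-0.33) and AT2G07732 (-0.96), fell. AT2G07698 rose from 7.21 to 16.8 CPM (1.22 ± 0.19) and AT2G07671 from 4.19 to 9.01 CPM (1.09 ± 0.2). Reads of genes within the mitochondria-like stretch can belong to near-identical mitochondrial copies, so the counts of those genes are uncertain.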
